A study of Mus musculus with 6 samples.

Results

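Cytosolic ribosomal protein genes encode the protein parts of the ribosome that makes most of the cell's proteins. They were described here in subcutaneous Lewis lung carcinoma tumours grown in transgenic mice. The members were the protein-coding genes of the count table whose names begin with Rpl or Rps followed by a number and at most a short ending, together with Rplp0, Rplp1, Rplp2 and Rpsa. Ribosomal S6 kinases and rows named as pseudogenes were left out. The name rule matched 85 of 19288 rows. 2 of these rows were named Rpl17 and Rps3 in the table but carried the Ensembl identifiers of March4 and March3, which are ubiquitin ligase genes, so they were left out. The genes with the Ensembl identifiers of Rpl17 and Rps3 were kept. This left 83 members, 50 of the large (60S) subunit and 33 of the small (40S) subunit.

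LLC1 cells, a Lewis lung carcinoma line (ATCC CRL-1642), were implanted under the skin, and the tumours were taken 30 days later. In all 3 groups the hosts were offspring of CB57BL/6 females (spelled as in the labels) and beta-hCG transgenic FVB males, so the groups used as controls carried the transgene too. The first group, transgenic, has no further condition or treatment in its labels. The vehicle group was ovariectomized and given vehicle, and the progesterone group was ovariectomized and given progesterone, with 28 days of supplementation. Ovariectomy removes the main source of progesterone and oestrogen, and there is no group of hosts without the transgene here. The sources used here do not give the promoter of the transgene or the hosts' age. Each group holds 2 libraries, and the labels do not say whether these came from separate animals, so a p-value measures only the spread between these libraries. The vehicle and transgenic groups bear on ovariectomy together with vehicle, the progesterone and vehicle groups on progesterone in ovariectomized hosts, and the progesterone and transgenic groups on both changes together. The 3 comparisons share their libraries pairwise.

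A ribosome holds a single copy of nearly every ribosomal protein, and these proteins are made in step with each other and with ribosomal RNA. The large subunit joins amino acids, the small subunit reads the mRNA, and the acidic stalk proteins Rplp1 and Rplp2, anchored by Rplp0, recruit translation factors. Many ribosomal protein mRNAs begin with a C and a run of pyrimidines, the 5′ terminal oligopyrimidine (TOP) tract, through which mTORC1 and the RNA-binding protein Larp1 control their translation. Growth signals and Myc raise ribosome production in tumours. Some proteins have paralogs that can take their place, such as Rpl22l1 for Rpl22 and Rps27l for Rps27.

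The start regions of the family carry its best known shared sequence. RefSeq start windows, 250 bases before to 50 bases after the start on GRCm38.p6, were matched for 63 of 83 members, which gave 75 windows. A C at the annotated start followed by 4 pyrimidines stood in 18.7% of these windows, in 2.29% of the windows of all genes tested and in 2.51% of all windows in the table. It was found in 14 members, of which the following are shown because they cover both subunits, the stalk and a pair of near copies. Each line gives the 20 bases before the start and the 20 bases from it on, 5′ to 3′ along the gene, with the pyrimidine run that covers the start in capitals.
Rps6 (chr4:86857348-86857387, minus strand): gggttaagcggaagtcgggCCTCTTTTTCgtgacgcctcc
Rps18 (chr17:33955646-33955685, minus strand): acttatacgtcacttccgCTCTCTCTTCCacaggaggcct
Rplp2 (chr7:141447631-141447670, plus strand): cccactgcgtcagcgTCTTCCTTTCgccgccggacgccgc
Rpl15 (chr14:18270967-18271006, minus strand): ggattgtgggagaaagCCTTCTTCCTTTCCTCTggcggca
Rpl35 (chr2:39005112-39005151, minus strand): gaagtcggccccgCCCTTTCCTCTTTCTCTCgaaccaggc
Rpl38 (chr11:114668560-114668599, plus strand): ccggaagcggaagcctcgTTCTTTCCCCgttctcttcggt
Rps27 (chr3:90213629-90213668, minus strand): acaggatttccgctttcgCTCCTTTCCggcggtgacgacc
Rps27rt (chr9:114982720-114982759, minus strand): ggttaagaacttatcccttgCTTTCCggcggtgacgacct

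The pyrimidine runs differ in length among these genes. Rpl15 and Rpl35 carry runs of 17 and 18 bases, and Rps27rt, a copy of Rps27, carries a run of 6. Other promoter letters were searched on both strands of the same windows. CCGGAAG, the core letters bound by ETS factors such as Gabpa, stood in 36% of member windows against 16.1% of the windows of tested genes and 8.86% of all windows. TCTCGCGA, a sequence known from TATA-less housekeeping promoters, stood in 16% against 1.98% and 0.995%. AAGATGGC, the core letters bound by Yy1, stood in 10.7% against 4% and 2.75%. The Myc-type E-box CACGTG (10.7% against 9.49%), the Sp1-type GC box GGGCGG (58.7% against 60.1%) and TATAAA (9.33% against 7.53%) had shares in member windows near those of tested genes. None of these shares was tested.

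In the count table, the 6 libraries held between 19526775 and 30083925 counts. Levels are given as CPM, counts scaled to a common library size with TMM, edgeR's correction for library composition. A low-count filter kept 13632 genes and 79 of 83 members, 47 of the large and 32 of the small subunit. Markers of other cells differed between libraries. Summed fibroblast markers (8 of 8 genes tested) were 7616 and 1960 CPM in transgenic, 6761 and 11420 CPM in vehicle and 4964 and 10550 CPM in progesterone libraries. Col3a1 held most of this sum, with 6169 and 1414 CPM in transgenic libraries. The markers did not move together, and 5 of the 8 were higher in transgenic 1 than in transgenic 2. Col1a2 went the other way, at 10.5 and 107 CPM, and was at 32.2 and 1082 CPM in progesterone libraries. Summed macrophage markers (10 of 10 tested) were 1253 and 2652, 1522 and 1827, and 2882 and 2468 CPM in the same order of groups. Endothelial markers (8 of 8) were 247.1 and 301, 254.3 and 252.9, and 112 and 257.8 CPM. Mast cell markers (7 of 7) were 16.74 and 31.27, 26.07 and 28.94, and 82.14 and 185.9 CPM. T cell markers (7 of 9) stayed between 2.226 and 13.49 CPM, B and plasma cell markers (2 of 5 in the table) between 0.4803 and 4.924 CPM, skeletal muscle markers (6 of 11) between 6.454 and 17.41 CPM, and testis markers (0 of 6) between 0.425 and 1.158 CPM. No gene of these lists that is in the table was at 0 in all 6 libraries. The part of these cells in the values below was not tested, and in whole tumours fewer cells of a type and less RNA per cell cannot be told apart.

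The family's share of all gene counts overlapped among the groups. The 83 members held 7.33% and 6.14% of all counts in transgenic libraries 1 and 2. They held 6.28% and 6.87% in vehicle libraries and 7.35% and 6.20% in progesterone libraries. The group means were 6.73% ± 0.844, 6.57% ± 0.412 and 6.78% ± 0.815 (SD, n = 2 each). All 3 groups overlapped, and each held a library above and a library below the mean of every group. The vehicle mean was 0.16 percentage points below the transgenic mean (two-sided exact permutation test, p = 1), and the progesterone mean was 0.20 points above the vehicle mean (exact permutation p = 1) and 0.0415 points above the transgenic mean (exact permutation p = 0.667). The smallest p of an exact permutation test of 2 against 2 libraries is 0.333.

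**Figure D1:**
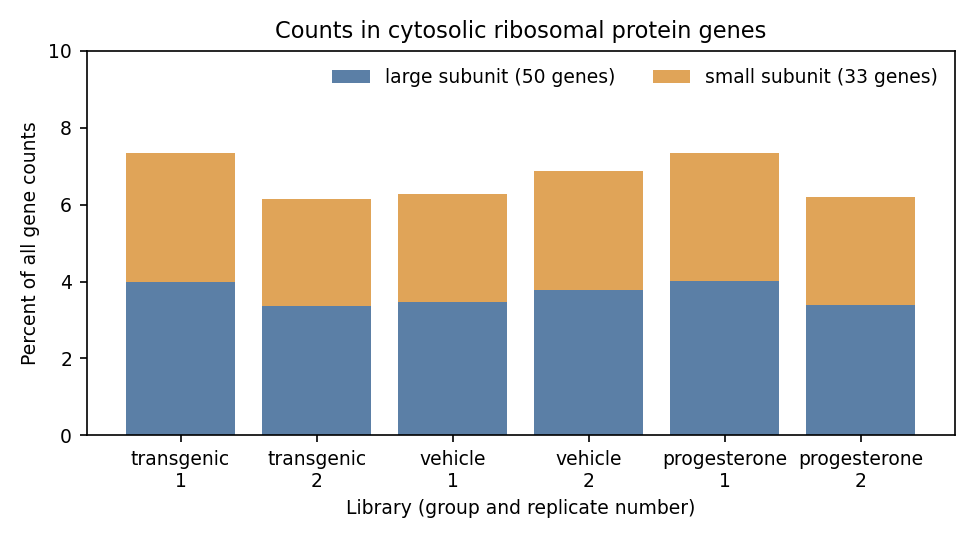
Percent of all gene counts in cytosolic ribosomal protein genes, stacked by subunit, with a bar for each of the 6 libraries (horizontal axis). The 2 libraries of the transgenic group stand at 7.33% and 6.14%, farther apart than any pair of group means.

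The balance of the subunits, by summed counts, was close in all 6 libraries. Small subunit genes held 3.34% and 2.77% of counts in transgenic libraries, 2.80% and 3.10% in vehicle libraries and 3.34% and 2.81% in progesterone libraries. The ratio of small to large subunit counts was 0.839 and 0.822 in the transgenic group, 0.806 and 0.821 in the vehicle group and 0.833 and 0.831 in the progesterone group. The vehicle libraries had the lowest ratios, just below the lower transgenic library. On the log2 scale the vehicle ratio was 0.0296 below the transgenic one (exact permutation p = 0.333, the smallest possible here), and this difference was 0.01195 in the other direction when subunit medians replaced summed counts. The progesterone ratio was 0.0321 above the vehicle ratio (exact permutation p = 0.333) and 0.00251 above the transgenic ratio (exact permutation p = 1). With subunit medians these differences were 0.107 and 0.119 (exact permutation p = 0.333 each).

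Levels per length of the main transcript spanned a wide range. Rplp1 was highest at 3056 CPM per kilobase (mean of 6 libraries), followed by Rps14 at 3016, Rps18 at 2846, Rps2 at 2399 and Rpl41 at 2170. Rplp1 and Rps14 are a stalk protein and a small subunit protein, and Rpl41 is the shortest ribosomal protein. Rplp0 stood at 1745 and Rplp2 at 1304 CPM per kilobase, so the 3 stalk genes were not level with each other by this measure. These levels rest on a single annotated transcript length for each gene and were not corrected for sequence shared with other genes. Of the runs of 50 bases in the transcripts of Rplp1, Rplp2 and Rplp0, 60%, 65% and 42% also occur in other genes. Rps6, the ribosomal target of S6 kinases, stood at 1398, Rpsa, which is also known as a laminin receptor, at 1299, and Rps27a, made as a fusion with ubiquitin, at 1056.

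4 members fell below the filter. Rps10, a small subunit protein, had 2 and 0 counts in transgenic libraries, 1 and 0 in vehicle libraries and 0 and 4 in progesterone libraries. Its main transcript lies on the same strand as the annotated read-through gene RPS10-NUDT3 over 91.6% of its bases. That gene had 9 to 19 counts. Rpl36al had 0 to 2 counts and shares 63.1% of its transcript with Gm49383, which had 18 to 50 counts. Rpl13a passed the filter but was the lowest of the members that did, at 16.0 to 30.0 CPM, and shares 59.3% of its transcript with Gm45713. Rpl3l, the muscle paralog of Rpl3, had 1 to 8 counts, and Rpl39l, a paralog of Rpl39 known from testis, had 0 to 12 counts. The levels of Rps10, Rpl36al and Rpl13a are uncertain, since reads in overlapping genes cannot be given to a single gene, and the part of this in their low counts was not tested. Rpl24, which shares 71.5% of its transcript with Gm28037 on the same strand, was not low, at 511 to 710 CPM.

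Many members also share sequence with pseudogenes. 80 of 83 members had at least 1 run of 50 bases that also occurs in a pseudogene, and in 49 members such runs shared with any other gene made up 50% or more of the transcript's runs. For the members below that limit the share of counts was 3.15% and 2.68% in transgenic libraries, 2.78% and 3.0% in vehicle libraries and 3.23% and 2.70% in progesterone libraries. The order of the 6 libraries was that of the whole family.

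Members differed between the libraries of a group, and most did so in the same direction. For each gene the deviation is its log2 level (CPM plus a pseudocount of 0.5) minus its mean over the 6 libraries. The median deviation of the 79 members was 0.14 in transgenic 1 and −0.19 in transgenic 2. It was −0.0543 in vehicle 1 and 0.0717 in vehicle 2, and 0.17 in progesterone 1 and −0.17 in progesterone 2. Over all genes tested the 6 medians lay between −0.00933 and 0.00161. Each group had a library in which the family was high and a library in which it was low. The median log2 difference of library 1 from library 2 was 0.33 for transgenic, −0.13 for vehicle and 0.34 for progesterone tumours.

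Transgenic 1 was above transgenic 2 in 73 of 79 members, against 48.5% of all genes tested. Progesterone 1 was above progesterone 2 in 76 of 79 members, against 49.8% of all genes. Vehicle 1 was above vehicle 2 in 15 of 79 members, against 48.5% of all genes. In 68 of 79 members both transgenic 1 and progesterone 1 were above both transgenic 2 and progesterone 2, a pattern noticed in these data and found in 15.1% of all genes. With library totals in place of TMM, 66 members had it. It was found in 30 of 32 small subunit and 38 of 47 large subunit members. The cause of this difference between libraries was not tested, and since library numbers carry no stated meaning, these counts compare libraries and not conditions.

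**Figure D2:**
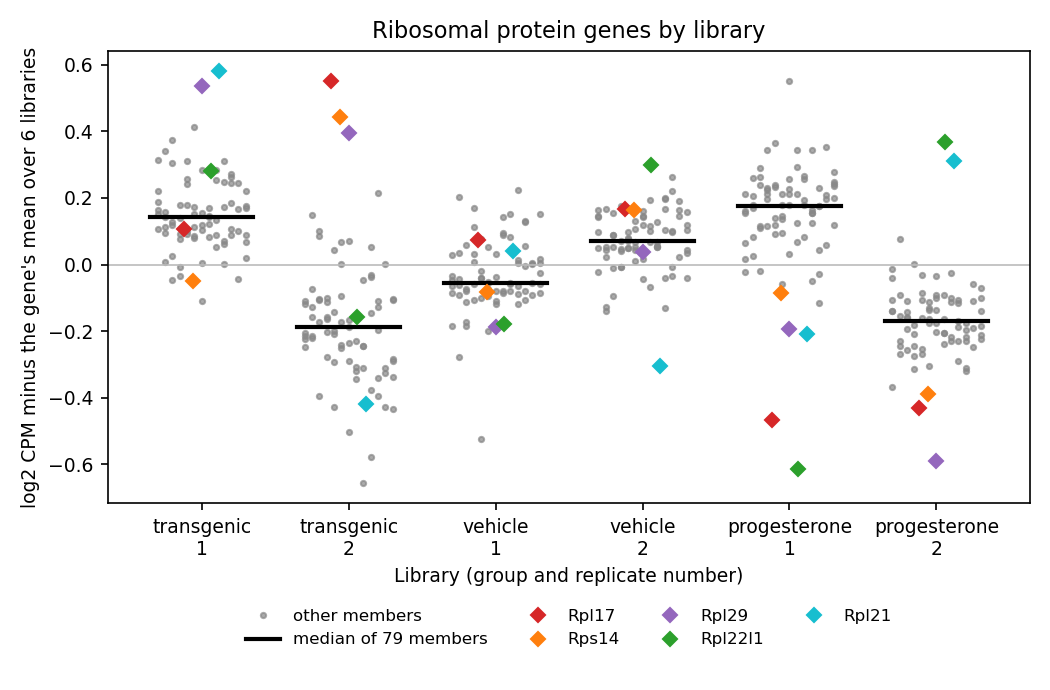
Deviation of each of 79 ribosomal protein genes from its own mean over the 6 libraries (vertical axis, log2 of CPM plus a pseudocount), by library, with black lines at the medians and 5 members in colour. The medians lie at 0.14, −0.19, −0.0543, 0.0717, 0.17 and −0.17 from left to right, and Rpl17 and Rps14 stand above the others in transgenic 2.

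Rplp1 shows the common course. Its level was 1836 and 1234 CPM in transgenic libraries, 1324 and 1636 in vehicle libraries and 1748 and 1371 in progesterone libraries. The groups overlapped, and each had a high and a low library. Rplp2 was at 600 and 439, 600 and 518, and 666 and 472 CPM in the same order of libraries, and Rplp0 at 2492 and 2095, 2277 and 2434, and 2734 and 2184 CPM. All 3 stalk genes were lowest in transgenic 2. Rps6 was at 1500 and 930 CPM in transgenic, 1213 and 1386 CPM in vehicle and 1344 and 989 CPM in progesterone libraries. Rps27a was at 827 and 617, 645 and 688, and 743 and 515 CPM. Rpsa, at 2411 and 1905, 1821 and 2283, and 2037 and 2010 CPM, differed little between the progesterone libraries.

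The highest value of a member lay in progesterone 1 for 42 members, in transgenic 1 for 23 and in vehicle 2 for 10 (53.2%, 29.1% and 12.7% of members, against 19.1%, 14.2% and 11% of all genes tested). The lowest lay in transgenic 2 for 38 and in progesterone 2 for 34 (48.1% and 43%, against 22.2% and 16.1% of all genes). 11 members did not follow the pattern above, namely Rpl4, Rpl5, Rpl7a, Rpl7l1, Rpl15, Rpl17, Rpl21, Rpl22l1, Rpl29, Rps7 and Rps14. The coefficient of variation over the 6 libraries had a median of 12.5% over members and 18.2% over all genes tested. The members past the filter had a median level of 706 CPM, and all genes tested were not matched to them for level. Among members the coefficient was lowest at 6.64% for Rps24, with Rpl6, Rpl5 and Rps3 next at 8.0% to 8.22%. The highest were 24.8% for Rpl22l1, 26.7% for Rpl17, 28.1% for Rpl21 and 28.7% for Rpl29. The 13 members past the filter with a pyrimidine tract at the RefSeq start had a median deviation of −0.252 in transgenic 2 and 0.196 in progesterone 1. The 46 matched members without one had medians of −0.199 and 0.177 there. This split rests on the annotated start alone. The starts used in these tumours were not measured, so members without the tract by this rule may still carry one.

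No member passed the test in any comparison, and no gene of the 13632 did (0% called at an adjusted p under 0.05 in each comparison, edgeR quasi-likelihood test, Benjamini-Hochberg over all genes). limma-voom also called 0 members in each comparison, with 0% of genes called. An unadjusted p under 0.05 was reached by 1 member between vehicle and transgenic (5.57% of all genes), by 1 between progesterone and vehicle (5.29%) and by 2 between progesterone and transgenic (5.27%). DESeq2 called 0, 0 and 2 members, with 0.484%, 0.55% and 0.345% of all genes called.

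The members' fold changes between groups were narrow. Between vehicle and transgenic their median log2 fold change was 0.0375 and 49 of 79 were above 0, while the median of all genes was −0.0111. Between progesterone and vehicle the median was −0.0175 with 34 of 79 above 0, against 0.00646 for all genes. Between progesterone and transgenic it was 0.0243 with 45 of 79 above 0, against 0.00615 for all genes. With library totals in place of TMM the first became −0.01805 and the second 0.06364. The medians of all genes became −0.0675 and 0.0908. The sign of both member medians thus depended on the scaling. With either scaling the first was above the median of all genes and the second below it. The median standard error of a member was 0.202. The median size of a member's log2 fold change, regardless of sign, was 0.0908, 0.0658 and 0.0979, against 0.214, 0.195 and 0.201 for all genes tested. These genes were not matched to the members for level. In the large subunit the median log2 fold changes were 0.0382, −0.0341 and 0.0119, and in the small subunit 0.0183, 0.0107 and 0.0450. Leaving out a library turned each median's sign. Between vehicle and transgenic it ran from −0.112 without transgenic 2, with −0.0352 without vehicle 2 and 0.0861 without vehicle 1, to 0.2114 without transgenic 1. Between progesterone and vehicle it was −0.1951 without progesterone 1, −0.0577 without vehicle 1, 0.0454 without vehicle 2 and 0.1405 without progesterone 2. Between progesterone and transgenic it was −0.1572 without progesterone 1, −0.1258 without transgenic 2, 0.1829 without progesterone 2 and 0.2188 without transgenic 1.

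**Figure D3:**
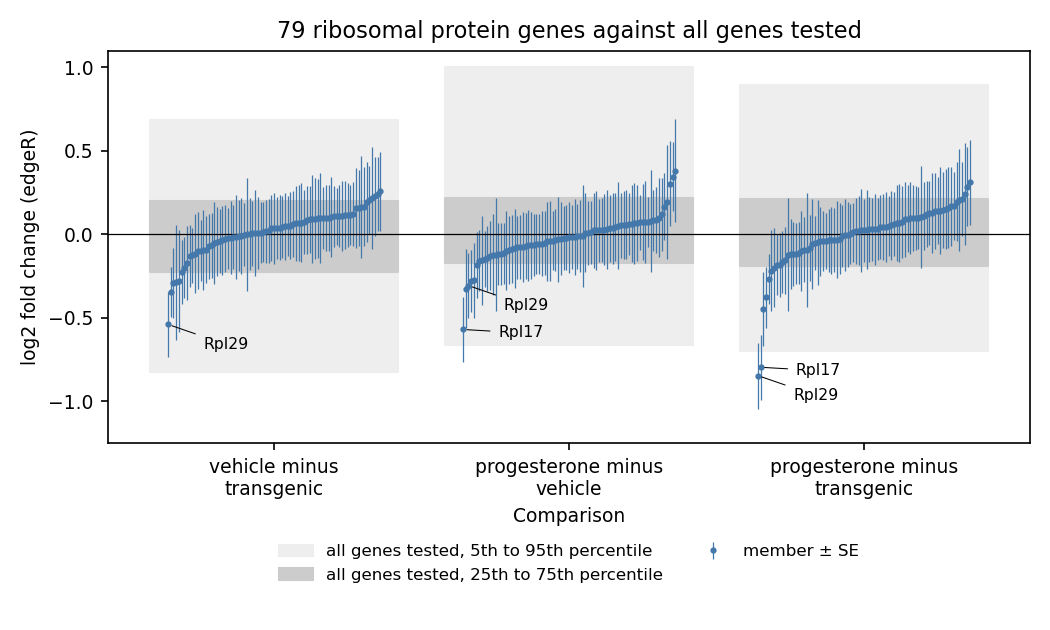
log2 fold change (vertical axis) of 79 ribosomal protein genes in the 3 comparisons, sorted within each, with standard errors, over bands from the 25th to the 75th percentile (inner) and the 5th to the 95th (outer) of all 13632 genes tested. In the 3 comparisons 69, 70 and 68 members lie inside the inner band, and Rpl29 and Rpl17 lie lowest between progesterone and transgenic at −0.85 and −0.80.

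Between vehicle and transgenic, 3 members were higher (Rpl5, Rpl12, Rpl24) and 5 lower (Rpl7l1, Rpl23a, Rpl29, Rps2, Rps24) without overlap of the groups, against 17.9% and 17.7% of all genes tested. Between progesterone and vehicle, 2 were higher (Rps27l, Rps28) and 5 lower (Rpl17, Rpl29, Rpl30, Rps7, Rps14), against 18.5% and 17.8%. Between progesterone and transgenic, 0 were higher and 6 lower (Rpl4, Rpl7l1, Rpl17, Rpl29, Rps7, Rps14), against 14.5% and 14.5%. In each case the share of members was below that of all genes. These counts rest on TMM-scaled CPM. For Rpl29, Rps7 and Rps14, progesterone 1 was only just below vehicle 1, so their lack of overlap may depend on the scaling.

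The members with the highest fold changes did not pass the test. Rpl37a, a zinc-binding protein of the large subunit, was at 596 and 391 CPM in transgenic, 567 and 612 CPM in vehicle and 662 and 541 CPM in progesterone libraries. The single low value was transgenic 2, and the log2 fold change was 0.26 ± 0.235 (SE) between vehicle and transgenic and 0.29 ± 0.235 between progesterone and transgenic. Rpl31 and Rpl30 were 0.24 and 0.23 above 0 between vehicle and transgenic, and both had their lowest value in transgenic 2. Rps20, a small subunit protein, was at 602 and 527, 553 and 583, and 880 and 521 CPM in the same order of libraries. It was high in progesterone 1 and lowest in progesterone 2, with a log2 fold change of 0.30 ± 0.256 between progesterone and vehicle. Rpl13a and Rps27l had the highest log2 fold changes in that comparison, 0.38 ± 0.308 and 0.35 ± 0.208.

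Rpl29, a basic protein of the large subunit, had the lowest fold change between progesterone and transgenic. Its level was 728 and 659 CPM in transgenic libraries, 440 and 514 CPM in vehicle libraries and 438 and 333 CPM in progesterone libraries. Both transgenic libraries were above the other 4, and both progesterone libraries were below both vehicle libraries. The log2 fold change was −0.54 ± 0.197 (SE) between vehicle and transgenic and −0.31 ± 0.196 between progesterone and vehicle. Between progesterone and transgenic it was −0.85 ± 0.198, with an adjusted p of 0.914 by edgeR and 0.0165 by DESeq2. Of the 50-base runs of its transcript 78.5% also occur in other genes, 81 of them pseudogenes, so its reads may be split. The 100 other genes within 5 Mb of it on chromosome 9 had median deviations between −0.111 and 0.157 in the 6 libraries.

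Rpl17, a protein that lines the exit tunnel of the large subunit, was at 425 and 579 CPM in transgenic libraries. It was at 415 and 443 CPM in vehicle libraries and at 286 and 293 CPM in progesterone libraries. The progesterone libraries were below the other 4, and transgenic 2 was far above the rest. The log2 fold change was −0.57 ± 0.193 between progesterone and vehicle (unadjusted p = 0.0208) and −0.80 ± 0.193 between progesterone and transgenic, with an adjusted p of 0.914 by edgeR and 0.0235 by DESeq2. Of its 50-base runs 78.7% also occur in other genes.

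Rps14, a protein on the platform of the small subunit, was at 1713 and 2410 CPM in transgenic, 1674 and 1984 CPM in vehicle and 1670 and 1353 CPM in progesterone libraries. Progesterone 1 was just below the lowest library of the other groups and progesterone 2 was further below, and the highest value was again transgenic 2. Its log2 fold change between progesterone and transgenic was −0.45 ± 0.224, and it did not pass the test. Rps7, at 1137 and 1226, 979 and 1230, and 973 and 845 CPM in the same order of libraries, had a log2 fold change of −0.38 ± 0.184 there and did not pass either.

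Rpl17 and Rps14 lie on chromosome 18, and the other genes of that chromosome were high in transgenic 2 too. This was examined after the values had been seen. Of 260 other genes on chromosome 18 with a mean of 5 CPM or more, 253 were above their own mean in transgenic 2, with a median deviation of 0.60. The median of Rpl17 and Rps14 was 0.50 in that library. All 22 other genes within 5 Mb of Rpl17 and all 37 within 5 Mb of Rps14 were above their own mean in it. In the comparison of progesterone and transgenic, the median log2 fold change of the 260 genes was −0.50, against −0.80 for Rpl17 and −0.45 for Rps14. Between progesterone and vehicle it was −0.20, against −0.57 and −0.28. Other chromosomes lay closer to 0 in transgenic 2, with medians such as −0.26 on chromosome 13, 0.22 on chromosome 8, 0.20 on chromosome 12 and −0.20 on chromosome 1.

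Rps23, a small subunit protein at the decoding site and the only member on chromosome 13, was at 1227 and 640 CPM in transgenic libraries. It was at 1121 and 1046 CPM in vehicle and at 1214 and 941 CPM in progesterone libraries. Transgenic 2 was its lowest library, where 2 of 28 other genes within 5 Mb were above their own mean. Rps7 is on chromosome 12, and 23 of the 28 other genes within 5 Mb of it were above their own mean in transgenic 2. The 366 other chromosome 12 genes averaging 5 CPM or more had a median log2 fold change of −0.26 between progesterone and transgenic. Rps7 was at −0.38 there. Between progesterone and vehicle the values were −0.14 for these genes and −0.28 for Rps7. What sets these chromosome values was not tested. 54 members lay on chromosomes whose other genes had a median above 0 in transgenic 2, and 41 of these members were below their own mean in that library. On the other chromosomes 25 of 25 members were below their own mean in it.

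**Figure D4:**
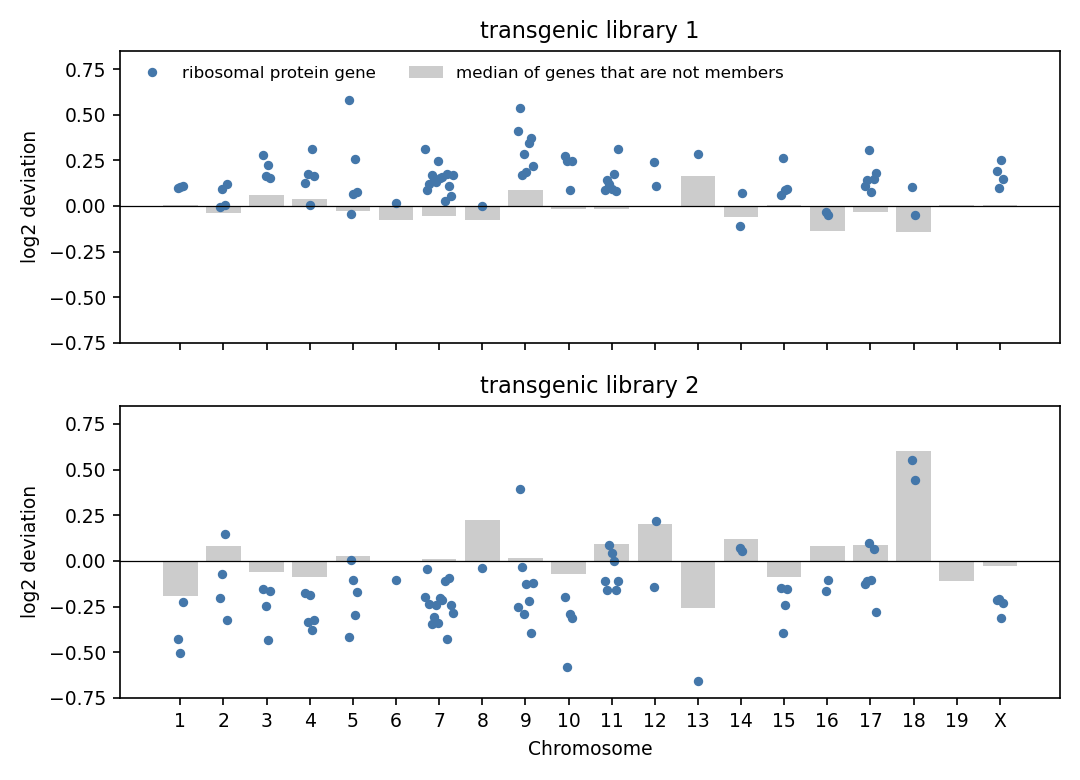
Deviation in transgenic library 1 (top) and 2 (bottom) by chromosome (horizontal axis). Grey bars are medians of genes that are not members and points are ribosomal protein genes. On chromosome 18 the bar for transgenic 2 stands at 0.60 with Rpl17 and Rps14 beside it.

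Paralogs were compared with the genes they resemble. Rpl22l1 had 22.9% and 24.1% of the counts of Rpl22 in transgenic libraries, 19.96% and 24.4% in vehicle libraries and 11.7% and 29.5% in progesterone libraries. The progesterone libraries held the lowest and the highest value, so the group did not stand apart. Rpl22l1 was at 66.1 CPM in progesterone 1 and 131 CPM in progesterone 2, while Rpl22 was at 563 and 444 CPM there, so the pair differed in opposite directions. In the transgenic libraries Rpl22l1 was at 123 and 90.9 CPM and Rpl22 at 538 and 377 CPM, and both were lower in library 2. In the vehicle libraries Rpl22l1 was at 89.6 and 125 CPM and Rpl22 at 449 and 511 CPM, and both were higher in library 2.

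Rpl7l1, a paralog of Rpl7 with a known part in ribosome assembly, had 12.4% and 13.6% of the counts of Rpl7 in transgenic libraries. It had 9.77% and 9.15% in vehicle libraries and 10.6% and 10.1% in progesterone libraries. Both transgenic libraries were above the other 4. Rps27l, a p53 target, had 25.7% and 27.4% of the counts of Rps27 in transgenic, 19.4% and 21% in vehicle and 23.2% and 26.3% in progesterone libraries. The vehicle libraries were the lowest. Over 12 tests of paralog ratios the smallest adjusted p was 0.571 (exact permutation tests, unadjusted p of 0.333 at best), so none passed. The Rpl7l1 ratio differed by −0.46 on the log2 scale between vehicle and transgenic, and the Rps27l ratio by −0.39.

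Rps27rt had 20.9% to 25.2% of the counts of Rps27 over the 6 libraries. Of its 50-base runs 91.1% occur in other genes, and of those of Rps27 98.7%, so the reads of this pair can hardly be told apart. Rpl21, a large subunit protein among the 4 members with the largest coefficient of variation, was at 287 and 143 CPM in transgenic, 197 and 155 CPM in vehicle and 166 and 238 CPM in progesterone libraries. It has runs in common with 81 pseudogenes.

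**Figure D5:**
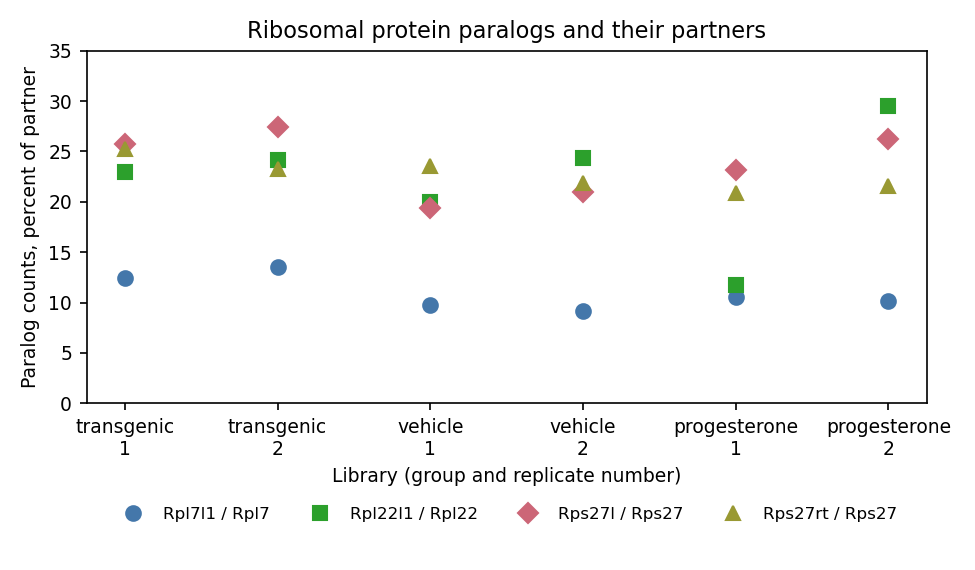
Counts of 4 paralogs as a percent of the counts of the gene they resemble (vertical axis), by library. Rpl22l1 spans 11.7% to 29.5% within the progesterone group, and Rpl7l1 stands highest in the 2 transgenic libraries.

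A few ribosomal proteins have names outside the rule. Fau, made as a fusion of a ubiquitin-like protein with the small subunit protein eS30, was at 802 and 579 CPM in transgenic, 748 and 744 CPM in vehicle and 798 and 618 CPM in progesterone libraries. It was highest in transgenic 1 and lowest in transgenic 2. Rack1, a scaffold on the small subunit, was at 1638 and 1833, 1540 and 1824, and 1722 and 1245 CPM in the same order of libraries, and was highest in transgenic 2.

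Other genes of translation and ribosome production were counted from lists, and no gene of them was called in any comparison. The library pattern of the members, with both library 1 values of the transgenic and progesterone groups above both library 2 values, was found in 9 of 17 translation factor genes with known TOP mRNAs. It was found in 42 of 75 mitochondrial ribosomal protein genes, in 11 of 32 ribosome assembly genes, in 4 of 14 RNA polymerase I genes, in 2 of 19 mTOR and Myc pathway regulators and in 0 of 11 proliferation genes, against 15.1% of all genes. Transgenic 1 was above transgenic 2 in 16 of 17 translation factor genes and in 50 of 75 mitochondrial ribosomal protein genes, and progesterone 1 was above progesterone 2 in 10 and 67 of them. The shares over all genes tested were 48.5% for the transgenic and 49.8% for the progesterone libraries. Among the promoter-binding factors of the motifs above, 0 of 8 had the pattern.

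Between vehicle and transgenic, the median log2 fold change was −0.18 over 75 mitochondrial ribosomal protein genes, of which 9 were above 0, and −0.14 over 32 assembly genes, of which 1 was above 0. It was −0.84 over the 11 proliferation genes, of which 11 had an unadjusted p under 0.05 (edgeR), and 0.0961 over the 17 translation factors, of which 12 were above 0. Of all genes tested, 48.5% were above 0 and 5.57% had an unadjusted p under 0.05 in this comparison. Between progesterone and vehicle the medians were −0.0151 over the assembly genes and −0.0553 over the translation factors. There the median was 0.16 over the mitochondrial ribosomal protein genes, of which 63 were above 0. It was 0.47 over the 11 proliferation genes, of which 11 were above 0 and 5 had an unadjusted p under 0.05 (edgeR). Of all genes tested, 51.1% were above 0 and 5.29% had an unadjusted p under 0.05 between progesterone and vehicle. None of the genes of these lists passed the adjusted threshold. The difference between these lists and the members was not tested. Nhp2, a component of small nucleolar ribonucleoproteins that modify ribosomal RNA, was at 138 and 144 CPM in transgenic, 82.8 and 99.8 CPM in vehicle and 115 and 99.5 CPM in progesterone libraries. The 14 RNA polymerase I genes had a median log2 fold change of −0.16 between vehicle and transgenic, with 2 above 0. It was 0.00933 between progesterone and vehicle, with 8 above 0, and −0.0894 between progesterone and transgenic, with 2 above 0. Twistnb, the subunit gene with the smallest unadjusted p of this list, was at 79.1 and 91.5, 60.5 and 66.9, and 56.2 and 55.7 CPM in the order of libraries given for Nhp2. Eef2, the elongation factor that moves the ribosome along the mRNA, was at 3827 and 3874, 4699 and 4846, and 4775 and 3382 CPM, and the progesterone libraries overlapped the other groups.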

How the data were processed

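6 tumour RNA libraries, made with a directional kit from 500 ng of total RNA each and 11 cycles of indexing PCR per the labels' protocols, were sequenced. Per the submitters' processing notes, HISAT2, HTSeq and DESeq were used with GRCm38.p6. The sources used here give neither their settings and versions nor the strand used in counting. The deposited table holds raw counts per gene, made by the authors, for 19288 gene identifiers, and GENCODE's GRCm38 annotation, used for positions and transcript lengths, held 19284 of them. Library totals were 26968095 and 23466357 (transgenic), 30083925 and 19526775 (vehicle) and 25892142 and 22954543 (progesterone). A gene at 0 counts may have up to 3 counts, or 0.0997 to 0.154 CPM, by counting error alone.

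Counts were tested with edgeR 4.0.16 (filterByExpr, TMM, glmQLFTest, 1 mean for each group, 3 residual degrees of freedom) over all 13632 genes kept, with Benjamini-Hochberg adjustment and a threshold of 0.05. Shares and ratios were compared with exact permutation tests over libraries (SciPy 1.17.1). Alternatives were DESeq2 1.42.0 and its size factors, limma-voom (limma 3.58.1), library totals, TMM factors without the members, no filter, a replicate block and leaving out each library. The script was tested on simulated data.

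The members, lists and named genes were chosen with earlier results of these data known. Named were paralogs and their partners, the 4 members in each direction with the smallest p in each comparison, the 5 highest and 3 lowest per length, the 4 most and the 4 least variable, the stalk genes, Rpsa, Rps6, Rps27a, Fau, Rack1 and up to 4 genes of each list. Those of the list genes and members whose values added nothing are given in counts. Rpl12, Rpl23a, Rps23 and the genes of chromosome 18 were examined after their values were seen. 9 symbols of the annotation that fit the name rule were not analysed here. Promoter windows are RefSeq's.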

Additional observations from a re-analysis of the deposited data

How the results depend on the processing

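With edgeR, no member was called in any of the 3 comparisons under DESeq2 size factors, library totals, TMM factors without the members, no low-count filter, the replicate block or leaving out any single library (0 to 0 members called), nor with limma-voom. Without the low-count filter, edgeR called 12 (vehicle minus transgenic), 92 (progesterone minus vehicle) and 28 (progesterone minus transgenic) of 19288 genes, none of them members. DESeq2 called 2 members between progesterone and transgenic, Rpl17 (log2 fold change −0.7972, adjusted p 0.0235) and Rpl29 (−0.8483, adjusted p 0.0165), and 0 in the other comparisons. The cause was not tested. Over edgeR fits that left out a library, the log2 fold change ran from −1.005 to −0.5567 for Rpl17 and from −1.061 to −0.6591 for Rpl29.

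Leaving out a library moved the median log2 fold change of members from −0.112 to 0.2114 (vehicle minus transgenic), from −0.1951 to 0.1405 (progesterone minus vehicle) and from −0.1572 to 0.2188 (progesterone minus transgenic). The difference in the share of counts ran from −0.7565 to 0.437, from −0.3751 to 0.7777 and from −0.5552 to 0.6382 percentage points, and that of the log2 subunit ratio from −0.0444 to −0.0149, from 0.01895 to 0.0453 and from −0.01225 to 0.0173. With subunit medians in place of summed counts these ratio differences became 0.01195, 0.107 and 0.119. When the replicate number was a block, the medians were 0.0477, −0.0323 and 0.0251 and 0 members were called. Across genes, the difference of library 2 from library 1 correlated between groups at 0.0804 (transgenic and vehicle), −0.174 (transgenic and progesterone) and −0.125 (vehicle and progesterone). These values cannot show whether same-numbered libraries share a batch or handling. With members limited to those with under 50% shared 50-base runs, an alternative added after seeing the data, the medians were 0.05195, 0.0072 and 0.0454. With 2 libraries a group, the median standard error of a member's log2 fold change was 0.202, which limits what the comparisons can show.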
